A study of Mus musculus with 39 samples.

Results

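The sweat gland epithelium genes described here were 8 genes taken by symbol: the keratins Krt7, Krt8, Krt18 and Krt19, the water channel Aqp5, the forkhead transcription factors Foxa1 and Foxi1, and the chloride channel Cftr. All 8 were among the 22609 genes of the count tables, and 7 of the 8 passed a filter on low counts in hind paw skin, Cftr being the exception. Their levels were followed across 24 paw libraries as CPM, the gene's reads scaled to a common total of gene reads per library. The mice were of strain C57 and 8 to 12 weeks old, and the labels name the vehicle mice as wild type and give no allele for the others. Treated mice had received paclitaxel, a cancer drug that binds microtubules, as 2 intraperitoneal injections of 3 mg/kg with 1 day between them. Time ran from the second of these injections. Paw skin of treated females was taken on days 2, 6, 16 and 26, and of treated males on days 2, 6 and 15. Titles of all treated male samples hold the letters LC, which the labels do not explain and female titles lack. The control group was vehicle females sampled 1 day after vehicle, and vehicle males were not analysed here. All treated days were compared with this group, so treatment cannot be told apart from the time elapsed since injection. Dorsal root ganglia (DRG, which hold sensory neuron cell bodies and no sweat glands) of vehicle females, and of both sexes on days 2 and 6, served as a tissue check. Each group had 3 libraries.

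Paw samples were punch biopsies of hind paws from both sides, so each library mixed epidermis, dermis, glands and whatever lay below. Suprabasal epidermal genes (5 of 6 listed were in the tables) summed to between 83500 and 155000 CPM in the paw libraries. Skeletal muscle genes varied far more, from 61.6 to 37500 CPM for 11 genes. Paw libraries held 16781618 to 24598926 gene reads. They fell into 2 sets by the share of reads that touched more than 1 gene, which was 0.205% to 0.24% in the 12 treated female libraries and 0.539% to 0.632% in the 12 vehicle female and treated male libraries. A difference between treated and vehicle females, or between treated females and males, therefore cannot be told apart from a difference between these sets. Nothing in the labels ties the replicates to separate mice. A p-value here therefore reflects the spread among the libraries of a group, and that spread may be technical.

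Eccrine sweat glands in mice are found in the hairless footpads. Each gland has a secretory coil and a duct, whose inner (luminal) cells carry simple epithelial keratins, and an outer layer of contractile myoepithelial cells around the coil. Krt8 pairs with Krt18 to build the filaments of simple epithelia, and Krt7 and Krt19 are further keratins of glandular and ductal cells. Aqp5 lets water pass the apical membrane of secretory cells. In mouse sweat glands Foxa1 is required for secretion and acts upstream of the anion channel gene Best2 and the sodium, potassium and chloride cotransporter gene Slc12a2. Foxi1 drives ionocyte-type cells, which are rich in proton pumps and anion exchangers, in kidney, inner ear and airway. Cftr carries chloride in the human sweat gland.

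Aqp5 was by far the most abundant of these transcripts in paw skin. Per kilobase of exon, the median level over the 24 libraries was 75.7 CPM for Aqp5, 15.0 for Krt18, 11.5 for Krt19, 5.46 for Foxi1, 4.93 for Krt8, 1.28 for Krt7 and 0.62 for Foxa1. Exon lengths came from an annotation of GRCm38, not from that used for counting. The genes lie on few chromosomes: Krt7, Krt8, Krt18 and Aqp5 on chromosome 15, Krt19 and Foxi1 on 11, Foxa1 on 12 and Cftr on 6. Krt8 and Krt18 are neighbours, 23.9 kb apart with 0 protein-coding genes between them. Exons of Krt7, Krt8 and Cftr overlap an RNA on the other strand (Gm671, Gm36026 and Gm15592), none of which is a row of the tables, and Krt8 has a named pseudogene, Krt8-ps. Their values are uncertain to that extent, since the strand setting used in counting is not given in the sources used here.

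The starts of the filament pair and of both forkhead genes are shown here because these 4 genes varied together between libraries. Sequences are from RefSeq (GRCm38.p6), 250 bases before to 50 bases after the gene start, 5′ to 3′ on the gene's strand. Capitals mark a forkhead motif, TGTTTAC or GTAAACA. Krt8 is at chr15:102004293-102004592 on the minus strand, Krt18 at chr15:102027966-102028265 on the plus strand, Foxa1 at chr12:57546062-57546361 on the minus strand and Foxi1 at chr11:34208040-34208339 on the minus strand.
Krt8: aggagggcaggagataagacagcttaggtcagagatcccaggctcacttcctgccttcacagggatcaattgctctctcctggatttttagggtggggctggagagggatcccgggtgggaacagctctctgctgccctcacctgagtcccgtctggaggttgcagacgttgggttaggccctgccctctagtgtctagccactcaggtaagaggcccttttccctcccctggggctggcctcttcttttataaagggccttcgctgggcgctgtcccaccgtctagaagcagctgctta
Krt18: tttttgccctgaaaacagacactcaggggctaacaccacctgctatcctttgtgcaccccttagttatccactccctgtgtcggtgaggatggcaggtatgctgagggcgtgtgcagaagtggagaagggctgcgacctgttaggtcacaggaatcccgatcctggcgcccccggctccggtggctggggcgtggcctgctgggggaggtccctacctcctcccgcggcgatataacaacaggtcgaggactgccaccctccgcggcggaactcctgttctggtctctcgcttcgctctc
Foxa1: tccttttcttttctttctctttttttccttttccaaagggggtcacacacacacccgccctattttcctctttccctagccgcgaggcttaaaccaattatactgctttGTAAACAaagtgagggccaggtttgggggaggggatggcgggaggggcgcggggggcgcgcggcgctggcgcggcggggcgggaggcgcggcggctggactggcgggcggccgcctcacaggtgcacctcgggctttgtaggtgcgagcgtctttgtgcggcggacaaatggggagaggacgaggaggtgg
Foxi1: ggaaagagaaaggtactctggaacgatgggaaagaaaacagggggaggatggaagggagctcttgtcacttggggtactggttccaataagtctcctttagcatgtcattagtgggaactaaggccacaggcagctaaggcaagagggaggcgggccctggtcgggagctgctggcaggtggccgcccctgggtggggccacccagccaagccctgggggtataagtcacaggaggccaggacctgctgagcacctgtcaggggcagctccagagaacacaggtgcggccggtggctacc
Of the 7 genes with a sequence in the table (Krt19 was not among them), 1 held the motif: the Foxa1 window has GTAAACA beginning 141 bases before the start. Over all 32851 windows of that length in the table, 1199 (3.65%) held it in either orientation.

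All 7 genes that passed the filter were higher in vehicle paw than in vehicle DRG, where 82.8% of 15826 genes tested differed in either direction. Foxi1 had 367 to 539 reads in the vehicle paw libraries and 0 to 1 in vehicle DRG, a log2 difference of 10.31 ± 0.37 (SE; edgeR adjusted p = 1.36e-07, 3 libraries against 3). Aqp5, at 199 to 268 CPM in paw and 0 to 0.159 in DRG, differed by 11.19 ± 0.35 on the log2 scale. Krt19 had the smallest difference of the 7. It was measured in every DRG library, between 1.43 and 7.24 CPM, and differed between vehicle tissues by 2.05 ± 0.29 (adjusted p = 0.000346). In DRG the other 4 keratin and forkhead genes stayed at or below 0.43 CPM.

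Cftr was close to absent. It had 7 reads in all 24 paw libraries together, with at most 2 in any library, and 0 in each vehicle female library. A count of 0 allows up to 3 reads, or 0.122 to 0.179 CPM at these depths, a limit that covers counting error only. In DRG it had 10 reads over 15 libraries, at most 1 in each.

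The simple epithelial keratins varied widely between paw libraries. Krt18 was at 18.3, 26.7 and 20.6 CPM in vehicle females (replicates 1 to 3, in that order here and below). In treated females it was at 30.1, 15.6 and 25.8 CPM on day 2, at 40.2, 15.2 and 69.4 on day 6, at 17.5, 24.5 and 7.55 on day 16, and at 14, 20.5 and 28.8 on day 26. In treated males Krt18 was at 30.3, 11.2 and 29.7 CPM on day 2, at 31.1, 10.6 and 9.74 on day 6, and at 28.4, 6.03 and 22.5 on day 15. Each treated group overlapped the vehicle group, and the highest and the lowest libraries of most treated groups lay on either side of it. Krt19 ranged from 7.4 to 79.0 CPM with a median of 21.4, and Krt8 from 3.62 to 33.0 with a median of 9.66. Both were highest in replicate 3 of female day 6, as Krt18 was, and Krt8 and Krt19 were lowest in replicate 3 of female day 16.

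In order of group means, Krt18, Krt8, Krt19, Krt7 and Aqp5 were all highest in females on day 6 and lowest in females on day 16. Foxi1 was highest in males on day 2 and lowest in females on day 16, and Foxa1 was highest in vehicle females and lowest in males on day 6. For Krt8, Krt18, Krt19, Aqp5, Foxa1 and Foxi1, 0 of the 7 pairs of neighbouring groups in these orders were free of overlap. For Krt7 it was 1 of 7, males on day 15 (lowest 6.47 CPM) above females on day 16 (highest 5.79 CPM).

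**Figure D1:**
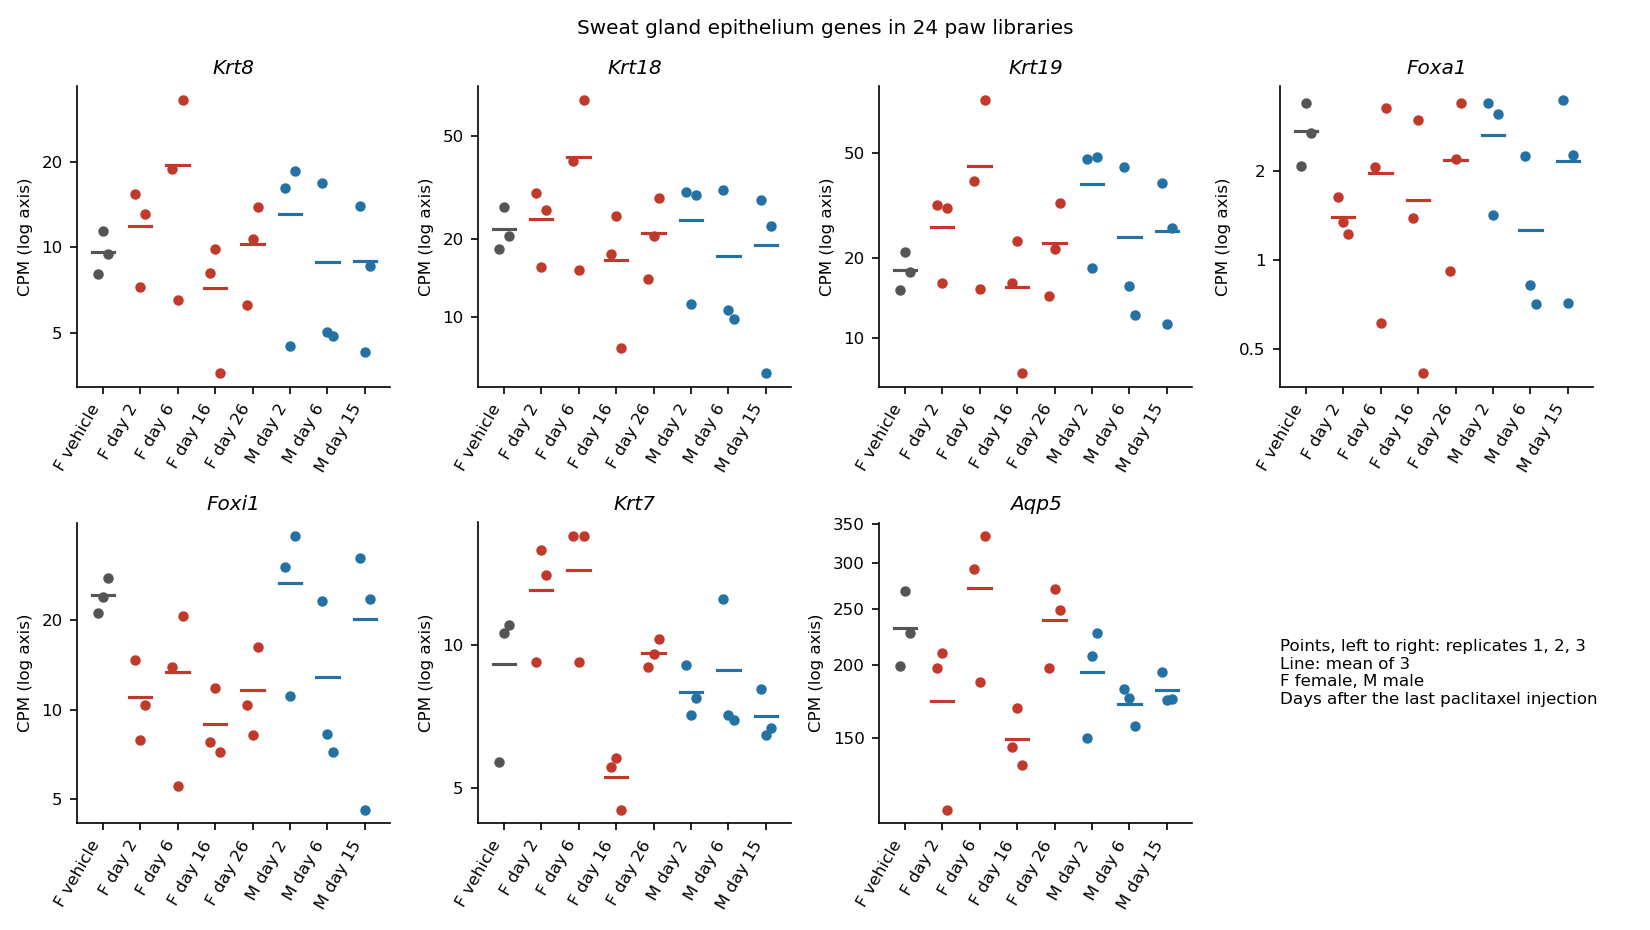
CPM of 7 sweat gland epithelium genes (log axes) in 24 paw libraries, by group; points are replicates and lines are means of 3. Krt8, Krt18, Krt19 and Foxa1 spread widely within groups, Krt7 on female day 16 (4.5 to 5.79 CPM) lies below days 2 and 6, and every treated female library of Foxi1 (at most 20.6 CPM) lies below the vehicle libraries (at least 21.1 CPM).

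Krt8, Krt18, Krt19, Foxa1 and Foxi1 moved together between replicates of the same group. Krt7 followed them loosely, and Aqp5 did so only within the treated female libraries. To see this, each gene's group mean of log2 CPM was subtracted and the remainders were correlated over the 24 libraries, for 21 pairs of genes. The 10 pairs among those 5 genes had Pearson's r between 0.81 and 0.98 and Spearman's rho of at least 0.83. Their permutation p-values (within groups, two-sided, 100000 draws) were at most 0.00078 for r after adjustment over the 21 pairs. The highest, Krt18 with Krt19, had r = 0.98 and rho = 0.98, each with a permutation p of 1e-05, the smallest these draws allow, and 7e-05 adjusted. The lowest, Foxa1 with Foxi1, had r = 0.81 (permutation p = 0.00037, adjusted 0.00078) and rho = 0.83 (permutation p = 0.00048, adjusted 0.001). Without the 2 libraries farthest from the median, r was at least 0.83 for all 10 pairs. Within the treated female libraries it was at least 0.75, and within the vehicle female and treated male libraries at least 0.91.

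Krt7 had r between 0.45 and 0.59 with the 5 genes, and Aqp5 between 0.25 and 0.46. For Aqp5 these r were 0.48 to 0.65 within treated females and -0.01 to 0.05 within the vehicle female and treated male libraries. Of the 11 pairs with Krt7 or Aqp5, 5 passed an adjusted permutation p of 0.05 for r: Krt7 with Krt8, Krt18, Krt19 and Foxa1, and Aqp5 with Foxa1. The last had r = 0.46 (adjusted permutation p = 0.035), rho = 0.47 (adjusted 0.038), 0.37 without the 2 farthest libraries, 0.65 within treated females and 0.05 within the other set. Krt7 with Aqp5, at r = 0.40 and rho = 0.42 (adjusted permutation p = 0.23 and 0.14), did not pass. After the level of skeletal muscle genes was taken out, 20 of the 21 pairs passed, among them 10 of the 11.

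**Figure D2:**
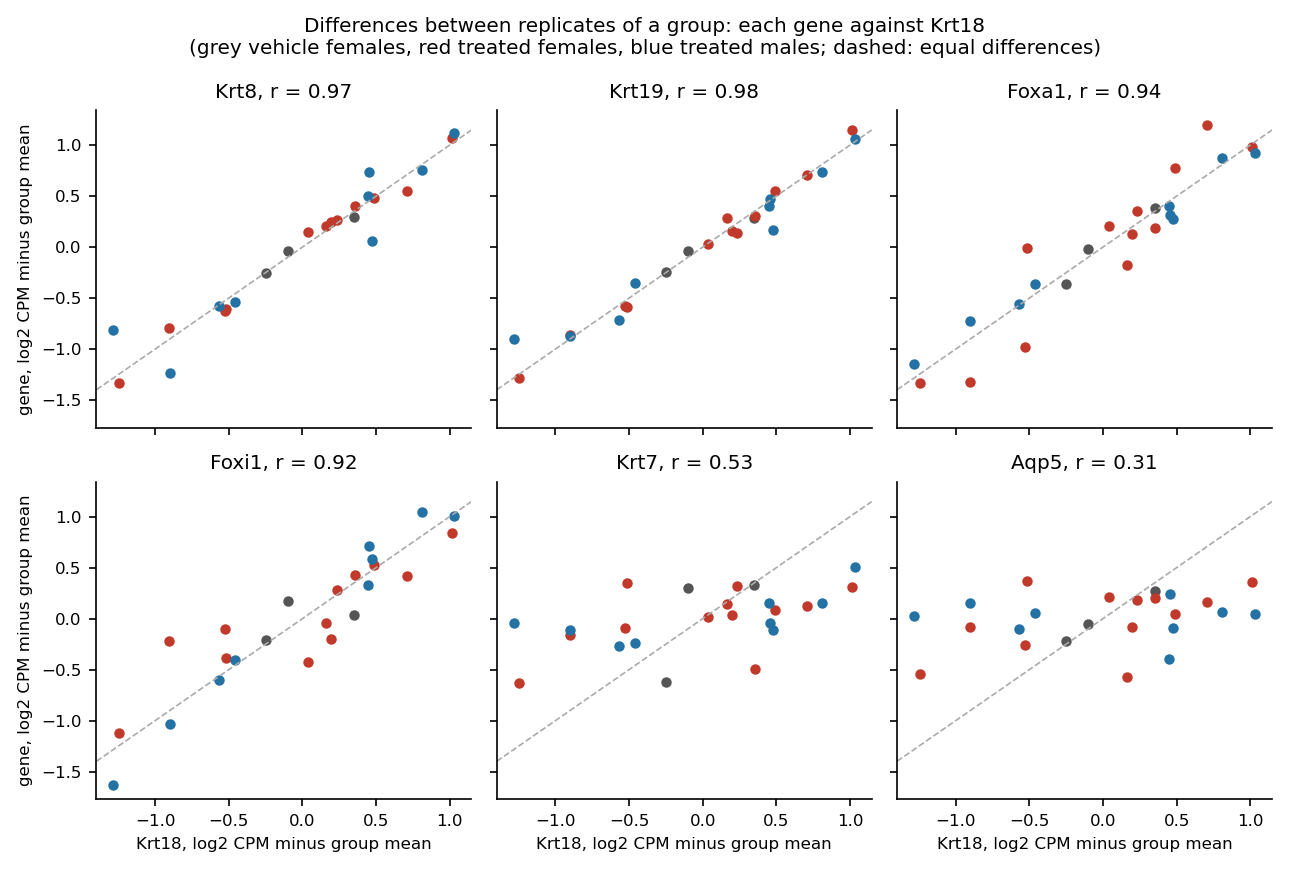
Each of 6 genes against Krt18 as log2 CPM minus the group mean, in 24 paw libraries (grey vehicle females, red treated females, blue treated males); the dashed line marks equal differences. Krt8, Krt19, Foxa1 and Foxi1 lie along the line (r = 0.92 to 0.98), and Krt7 (r = 0.53) and Aqp5 (r = 0.31) spread far less than Krt18.

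The genes nearest to Krt18 by this measure were Clic6 (r = 0.99), Atp6v1b1 (r = 0.99), which encodes a subunit of the proton pump of ionocyte-type cells, and Krt19. Those nearest to Krt8 were Krt19, Krt18 and Slc20a1, a phosphate transporter (r = 0.96), and those nearest to Krt19 were Krt18, Krt8 and Atp6v1b1. Foxa1 was nearest to 0610040J01Rik (r = 0.95), Clic6 and Krt18. Foxi1 was nearest to Pik3r3, a regulatory subunit of phosphoinositide 3-kinase (r = 0.95), the tight junction gene Cldn7 (r = 0.94) and 8430427H17Rik. Aqp5 had other neighbours, Magi3 (r = 0.91), Gnb1l (r = 0.90) and the protease gene Tmprss11d (r = 0.89), with the suprabasal keratin gene Krt1 (r = 0.87) and Kprp (r = 0.87), another gene of that layer, among its nearest 10. Krt7 had none above 0.77, its nearest being the ciliary gene Ttc26. These are descriptions over 24 libraries that share tissue composition, and they carry no p.

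Genes of the secretory coil tracked Krt18 more often than genes at large. Of 15346 genes tested, 188 (1.23%) had r over 0.8 with Krt18, against 8 of 13 listed secretory coil genes. Among them were Slc12a2 (r = 0.97), the sodium pump subunit Atp1b1 (r = 0.95), the potassium channel Kcnn4 (r = 0.95), the muscarinic receptor Chrm3 (r = 0.94), the carbonic anhydrase Car12 (r = 0.92), Best2 (r = 0.88) and the calcium release channel Itpr2 (r = 0.84). Best2 ranged from 5.12 to 60.2 CPM. Ductal sodium absorption genes gave 2 of 6 tested, the sodium channel subunit Scnn1b and the kinase Sgk1 (both r = 0.87). Ionocyte-type genes gave 2 of 8 tested, Atp6v1b1 and the anion exchanger Slc26a4 (r = 0.95). Luminal junction and transcription genes gave 4 of 12, Cldn7 (r = 0.98), Cldn3 (r = 0.93), Sox9 (r = 0.83) and Elf3 (r = 0.82). Median r was 0.38 in the ductal, 0.24 in the ionocyte-type and 0.29 in the luminal list, beside 0.87 in the secretory coil list. Ductal, ionocyte-type and luminal genes reached down to r of -0.17, -0.63 and -0.45, so most genes of these lists did not track Krt18 closely.

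Myoepithelial genes (9) and gland development genes (9) gave 0, with median r of -0.15 and -0.12, and the median over all genes was -0.04. Within the myoepithelial list the contractile genes Cnn1 (r = 0.70), Mylk (0.68), Acta2 (0.43) and Myh11 (0.43) were positive, and Krt5, Krt14, Krt17 and Trp63, which basal epidermis also expresses, were negative (-0.63 to -0.21). Oxtr, also of that list, was at -0.15. The list's mean level did not pass with Krt18 (r = 0.4, rho = 0.3, permutation p = 0.145 and 0.27). Each of 10 lists of other skin, muscle and nerve cell types also gave 0. Among these the Merkel cell list bears on Krt8, Krt18 and Krt19, since Merkel cells of the epidermis carry the same keratins. Its 5 measured genes summed to 2.04 to 5.28 CPM in paw libraries. Krt20 reached at most 0.839 CPM, and Atoh1, the factor that makes Merkel cells, was at 0 in some libraries and at most 0.436. The relation of the list's mean level to Krt18 was negative (r = -0.52, rho = -0.59, permutation p = 0.0195 and 0.00552). For r it did not pass after adjustment over 16 lists (0.063), and p for rho was not adjusted. Of its 3 tested genes Chga was at r = -0.49, Krt20 at -0.43 and Sox2 at 0.05. The hair follicle bulge list did not pass either (r = -0.50, rho = -0.47, permutation p = 0.0336 and 0.0517, adjusted 0.09 for r). The mean level of the secretory coil list had r = 0.96 and rho = 0.95 with Krt18 (permutation p = 1e-05 each), 0.94 without the 2 farthest libraries, and 0.97 and 0.96 within the 2 sets. The ductal (r = 0.89, rho = 0.91), luminal (0.83 and 0.83) and ionocyte-type lists (0.71 and 0.77) also passed, with adjusted permutation p of at most 0.0028 for r. Skeletal muscle, at r = 0.10 and rho = 0.17 (permutation p = 0.686 and 0.469), did not follow Krt18.

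**Figure D3:**
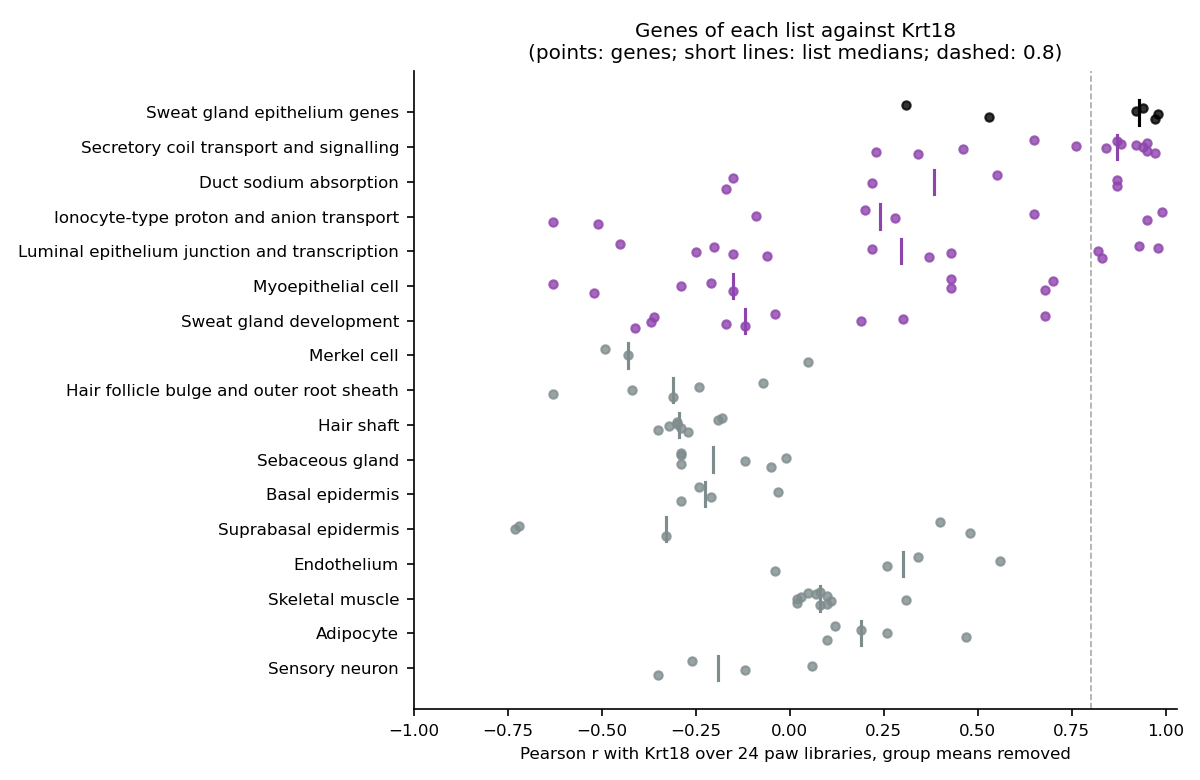
Pearson r with Krt18 for each gene of 17 lists over 24 paw libraries, group means removed; points are genes, short lines list medians and the dashed line 0.8. Sweat gland lists are purple (the genes described here black) and other cell types grey; 8 of 13 secretory coil genes and 0 genes of the grey lists lie beyond the line.

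In treated females Krt7 fell between the early days and day 16, and no keratin passed the test against vehicle on days 2, 16 and 26. Krt7 was at 5.68, 10.6 and 11 CPM in vehicle females, at 9.2, 15.8 and 14 on day 2 and at 16.9, 9.19 and 16.9 on day 6. On day 16 it was at 5.54, 5.79 and 4.5 CPM, and on day 26 at 8.99, 9.56 and 10.3. Every library of day 16 lay below every library of days 2, 6 and 26, and how many of all genes were so separated was not counted. From day 6 to day 16 Krt7 fell by 1.49 ± 0.28 on the log2 scale (adjusted p = 0.00572), and 1 library left out at a time gave -1.77 to -1.35 (adjusted p at most 0.0306). Against day 2 it fell by 1.29 ± 0.28 (adjusted p = 0.0287), a call that 5 of 6 such leave-outs ended (adjusted p up to 0.188). From day 16 to day 26 the change, 0.87 ± 0.28 on the log2 scale, did not pass (adjusted p = 0.161). Day 6 was above vehicle by 0.80 ± 0.28 (adjusted p = 0.036), with overlapping libraries. That call was lost without vehicle replicate 1 (0.58, adjusted p = 0.161), without day 6 replicate 1 (0.63, 0.15) or without day 6 replicate 3 (0.64, 0.146), and with only the compared groups in the fit (0.78, 0.144).

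Aqp5 showed a smaller drop over the same interval. It was at 199, 268 and 227 CPM in vehicle females, at 198, 210 and 113 on day 2 and at 293, 187 and 333 on day 6. It was at 145, 169 and 135 CPM on day 16 and at 198, 270 and 249 on day 26. The libraries of day 16 lay below those of days 6 and 26 and overlapped those of day 2. Again the share of all genes so separated was not counted. From day 6 to day 16 Aqp5 fell by 0.90 ± 0.23 on the log2 scale (adjusted p = 0.0232). Skeletal muscle genes summed to 130, 8170 and 141 CPM on day 6 and 19700, 16000 and 759 on day 16, against the direction of Aqp5, and with their level as a covariate the difference was -0.60 (adjusted p = 0.0836). It was also lost in 4 of 6 leave-outs, without replicates 1 or 3 of either day (adjusted p up to 0.124). Suprabasal epidermal genes summed to 135000 to 155000 CPM on day 6 and 109000 to 148000 on day 16, and their part in the Aqp5 result was not tested. Whether a lower value means fewer cells of a type or less RNA per cell cannot be told apart in such biopsies.

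Between days 6 and 16, then, 2 of the 7 genes passed, both downwards, where 8.89% of all genes passed (4.8% downwards). The 3 simple keratins pointed the same way without passing: Krt19 differed by -1.57 ± 0.59 (adjusted p = 0.0968), Krt8 by -1.50 ± 0.61 (0.124) and Krt18 by -1.40 ± 0.59 (0.138). Without replicate 2 of day 6, Krt19 and Krt8 did pass (-2.01, adjusted p = 0.0348, and -1.95, 0.0468). Set against the mean level of the 13 secretory coil genes, as a covariate chosen after the data had been seen, 5 of 7 passed (13.7% of all genes): Krt7 fell by 1.37, Krt19 by 0.96, Krt8 by 0.86, Aqp5 by 0.85 and Krt18 by 0.81 (adjusted p between 0.00575 and 0.039). Between days 2 and 16, 1 of 7 passed (Krt7), against 1.48% of all genes. Between days 2 and 6 the count was 0 of 7 against 0.873%, and between days 16 and 26 it was 0 of 7 against 1.06%. With only the compared groups in the fit, 0 genes of any kind passed in these 4 comparisons.

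Against vehicle, 1 of 7 genes (Krt7) passed on day 6, where 29.5% of all genes did. On days 2, 16 and 26 the counts were 0 of 7, against 29%, 21.7% and 20.4% of all genes. Krt19 on day 6, at 38.9, 15.4 and 79.0 CPM against 15.2, 21.1 and 17.8 in vehicle, gave 1.45 ± 0.58 (adjusted p = 0.07), and without day 6 replicate 2 it gave 1.90 (adjusted p = 0.0186).

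Foxi1 was lower in each of the 12 treated female libraries than in each of the 3 vehicle libraries. The share of all genes separated in this way was not counted. By the edgeR test, 20.4% to 29.5% of all genes passed against vehicle on a given day. Foxi1 was at 21.1, 24 and 27.8 CPM in vehicle females. In treated females it was at 14.7, 7.87 and 10.4 CPM on day 2, at 13.9, 5.53 and 20.6 on day 6, at 7.79, 11.8 and 7.19 on day 16, and at 10.4, 8.19 and 16.3 on day 26. The log2 differences from vehicle were -1.07 ± 0.58, -0.71 ± 0.58, -1.35 ± 0.59 and -0.97 ± 0.58, none of which passed (adjusted p between 0.112 and 0.387). In treated males Foxi1 was at 30.3, 11.1 and 38.4 CPM on day 2, at 23.2, 8.29 and 7.18 on day 6, and at 32.5, 4.6 and 23.6 on day 15. Days 2 and 15 had libraries both above and below the vehicle range, and day 6 had 1 within it and the others below.

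Since Foxi1 followed the simple keratins between replicates, the 2 were also set against each other within each library. In vehicle females there were 1.15, 0.899 and 1.35 Foxi1 reads per Krt18 read. There were 0.486, 0.504 and 0.402 in treated females on day 2, and 0.346, 0.363 and 0.297 on day 6. On day 16 there were 0.445, 0.481 and 0.952, and on day 26 there were 0.741, 0.399 and 0.566. Of the 12 treated female libraries, 11 lay below the lowest vehicle library, the exception being replicate 3 of day 16, which had the lowest Krt18 of that group. How many of all genes have such ratios was not counted. In males the Foxi1 ratio was 0.987 to 1.29 on day 2, 0.737 to 0.784 on day 6 and 0.764 to 1.15 on day 15.

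Foxa1, a rarer transcript with 8 to 75 reads per paw library, gave a like picture per Krt18 read on the early days. By CPM it did so on day 2 and overlapped vehicle on day 6. It was at 2.07, 3.4 and 2.68 CPM in vehicle females and at 1.63, 1.34 and 1.22 on day 2, with no overlap. The share of all genes with no overlap there was not counted. By the edgeR test without a covariate Foxa1 did not pass on day 2, where 29% of all genes did. On day 6 Foxa1 was at 2.06, 0.61 and 3.25 CPM, on day 16 at 1.39, 2.98 and 0.414, and on day 26 at 0.919, 2.2 and 3.4. Per Krt18 read there were 0.113 to 0.13 Foxa1 reads in vehicle females, 0.0472 to 0.086 on day 2 and 0.04 to 0.0511 on day 6. On days 16 and 26 the ranges were 0.0548 to 0.121 and 0.0657 to 0.118. In treated males they were 0.105 to 0.127 on day 2, 0.0721 to 0.078 on day 6 and 0.101 to 0.123 on day 15. Male day 6 thus also lay below the vehicle range. The ratio of Krt19 to Krt18 ran otherwise, at 0.79 to 0.862 in vehicle females, 0.929 to 1.2 in treated females and 1.15 to 1.88 in treated males, and that of Krt8 to Krt18 stayed between 0.383 and 0.709 throughout.

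**Figure D4:**
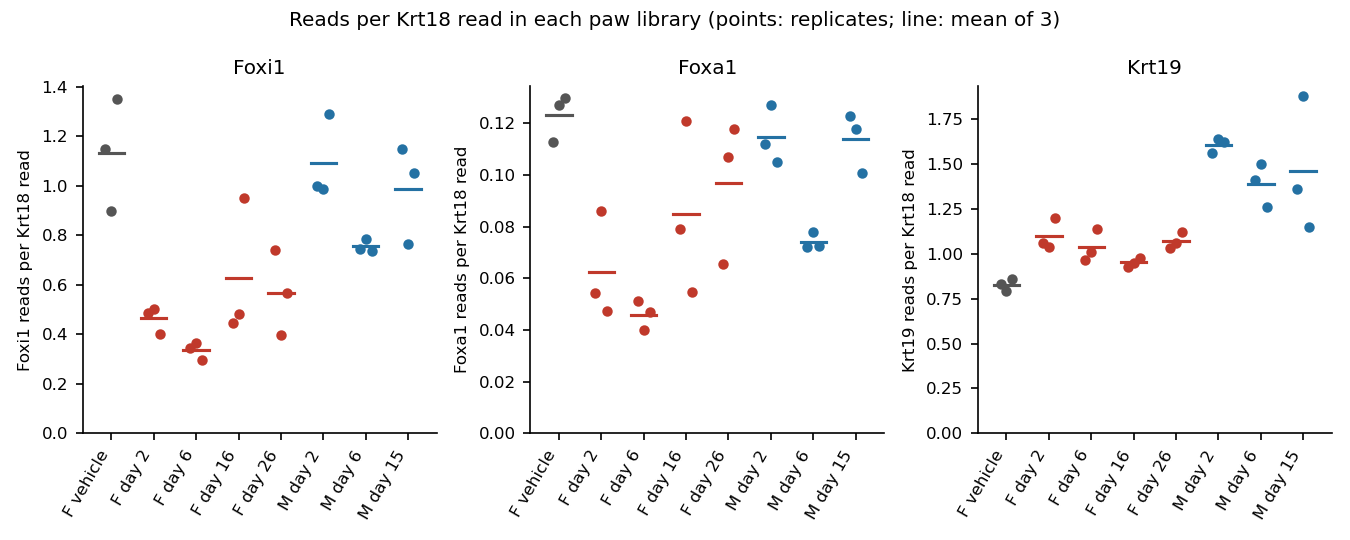
Foxi1, Foxa1 and Krt19 reads per Krt18 read in 24 paw libraries (linear axes from 0); points are replicates and lines are means of 3. Foxi1 on female days 2 and 6 (0.297 to 0.504) lies below vehicle (0.899 to 1.35), and Krt19 is highest in males (1.15 to 1.88).

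The same relation was then fitted by adding the mean log2 CPM of Krt8, Krt18 and Krt19 to the edgeR model as a covariate. That choice was made after the ratios had been seen, so it is not independent of them, and the covariate holds Krt19, whose ratio to Krt18 itself differed between vehicle and treated libraries. Foxi1 then changed by -1.43 ± 0.28 on female day 2 (adjusted p = 0.000872), -1.78 ± 0.30 on day 6 (0.000201), -1.01 ± 0.28 on day 16 (0.0138) and -1.14 ± 0.27 on day 26 (0.00574) against vehicle. Foxa1 changed by -1.21 ± 0.28 on day 2 (adjusted p = 0.00315) and -1.62 ± 0.30 on day 6 (0.000512). On days 16 and 26 it was at -0.53 (adjusted p = 0.182 and 0.185). From day 6 to day 16 Foxa1 was at 1.09 ± 0.31 (adjusted p = 0.0425), against -0.36 without the covariate and 0.12 (0.824) with the secretory coil covariate, and 5 of 6 leave-outs ended that call (adjusted p up to 0.276). Over the same interval Foxi1 was at 0.77 (0.126), Krt7 fell by 1.13 ± 0.28 (0.0252) and Aqp5 no longer passed (-0.72, 0.0822), where 7.79% of all genes passed. Of the 4 genes outside the covariate, 2 thus passed on each of days 2 and 6 and 1 on each of days 16 and 26, where 29.8%, 30.8%, 22.5% and 22.5% of all genes passed. Krt7 and Aqp5 did not pass in any of these 4 comparisons with vehicle. The fitted slope per log2 unit of the keratins was 1.07 for Foxa1, 0.90 for Foxi1, 0.25 for Krt7 and 0.12 for Aqp5.

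The day 16 call of Foxi1 was lost without vehicle replicate 3 (-0.89, adjusted p = 0.0587), day 16 replicate 1 (-0.82, 0.0806) or day 16 replicate 2 (-0.89, 0.0738). The others of Foxi1, and those of Foxa1 on days 2 and 6, held in all 6 leave-outs. The Foxa1 call on day 2 was lost with only the compared groups in the fit (-1.01, adjusted p = 0.12). With the mean level of 13 secretory coil genes as the covariate in place of the keratins, likewise chosen after the data had been seen, the Foxi1 changes were -1.35, -1.19, -1.16 and -1.08 (adjusted p between 0.0047 and 0.0219), and those of Foxa1 on days 2 and 6 were -1.15 and -0.94 (0.0104 and 0.0296). In that model Krt19 (0.86, adjusted p = 0.00296), Krt7 (0.70, 0.0476) and Krt18 (0.51, 0.0455) also passed on day 6, upwards, where 33.3% of all genes passed. Krt8 did not pass there (0.58, adjusted p = 0.0915). In the model with the keratin covariate, 8 ionocyte-type genes gave 2 lower on day 2, the proton pump subunits Atp6v1b1 and Atp6v1c2, 1 lower on day 6 (Atp6v1b1) and 0 on days 16 and 26. Among all genes in that model, 15.5%, 13.8%, 11.3% and 10.4% were lower on days 2, 6, 16 and 26. Higher were 14.4%, 17%, 11.2% and 12%. Of the 13 secretory coil genes, 1 was higher (Stim1) and 1 lower (Car12) on day 2, 1 lower on day 6 (Atp1b1), 0 changed on day 16 and 1 was lower on day 26 (Car12). Of 12 luminal genes, 4 were lower on day 2 and 3 on day 26. On day 6, 2 luminal genes were lower and 1 higher, and on day 16, 1 lower and 1 higher. Of 6 ductal genes, 1 was lower on each of days 2, 6 and 26, and 1 was higher on day 6. Genes of other tissue parts differed between these groups as well. The 8 hair shaft genes summed to 24.3 to 63.6 CPM in vehicle females, 0.086 to 4.07 on day 2, 0.383 to 18.9 on day 6, 34.8 to 286 on day 16 and 22.7 to 24.4 on day 26. In the model with the keratin covariate, 3 of 4 sensory neuron genes were higher on days 2 and 6 (Prph, Scn10a and Snap25), and 3 of 5 suprabasal genes on day 6 (Krt10, Krt2 and Lor), beside 14.4% and 17% of all genes on days 2 and 6. The part of these lists in the forkhead gene results was not tested, and treatment and library set cannot be told apart.

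**Figure D5:**
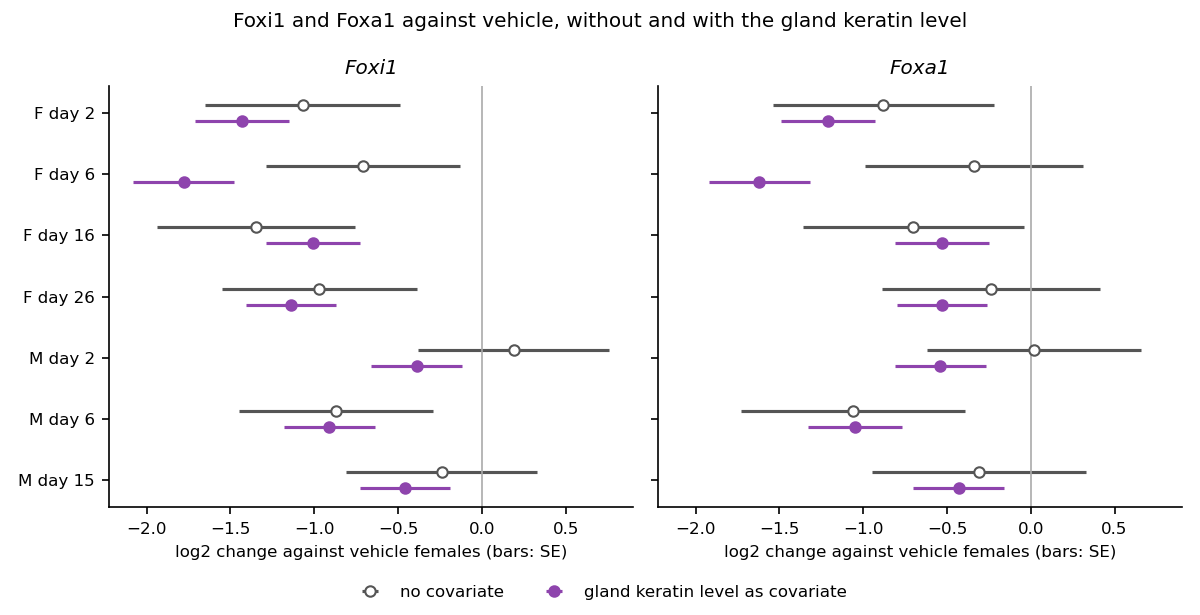
Log2 change of Foxi1 and Foxa1 against vehicle females (bars: SE), without a covariate (open) and with the gland keratin level as a covariate (filled), for 4 female and 3 male groups of 3 libraries. With the covariate, Foxi1 lies at -1.78 to -1.01 in females and at -0.91 to -0.39 in males.

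Treated males were in the same library set as vehicle females, but there sex, treatment and the LC label cannot be told apart. Without a covariate 0 of 7 genes passed on each of days 2, 6 and 15 against vehicle females, where 5.95%, 5.97% and 4.41% of all genes passed. With the keratin covariate, 1 of 4 passed on day 6 (7.03% of all genes) and 0 of 4 on days 2 and 15 (5.82% and 5.32%). That was Foxa1, at 2.24, 0.824 and 0.707 CPM, which changed by -1.05 ± 0.28 (adjusted p = 0.0314). It missed the threshold in each of 6 leave-outs (adjusted p 0.0546 to 0.171). Foxi1 on male day 6 changed by -0.91 ± 0.27 (adjusted p = 0.0509), and with replicate number as a block by -0.91 (adjusted p = 0.0351). Foxi1 was at -0.39 on day 2 (adjusted p = 0.443) and at -0.46 on day 15 (0.327). In the same model Foxi1 was lower in treated females than in treated males on day 2 (-1.04 ± 0.27, adjusted p = 0.00698) and on day 6 (-0.87 ± 0.30, 0.0281), where 33.5% and 38.7% of all genes passed. Foxa1 did not pass there (-0.67 and -0.56, adjusted p = 0.07 and 0.166).

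Among treated males themselves 0 of the 7 genes passed between days 2, 6 and 15, as did 0% of all genes with edgeR. At an unadjusted p under 0.05, 345 genes differed between days 2 and 6, 629 between days 2 and 15, and 679 between days 6 and 15, and DESeq2 called 2 genes between days 2 and 15. Krt7 was at 9.04, 7.12 and 7.71 CPM on day 2, at 12.5, 7.12 and 6.96 on day 6, and at 8.08, 6.47 and 6.68 on day 15. Aqp5 was at 150, 207 and 227 CPM, then at 182, 176 and 157, then at 195, 174 and 175.

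On day 6 females were above males in 2 of the 7 genes, Aqp5 and Krt7, where 37.3% of all genes passed (19.2% higher in females). Aqp5, at 187 to 333 CPM in females and 157 to 182 in males with no overlap, differed by 0.75 ± 0.23 (adjusted p = 0.0158). Krt7 differed by 0.79 ± 0.28 (adjusted p = 0.0317), with overlapping libraries. With the muscle level as a covariate neither passed (0.50, adjusted p = 0.0502, and 0.63, adjusted p = 0.0911), and both calls were lost without replicate 1 or 3 of the female group (adjusted p up to 0.131). That of Krt7 was also lost without male replicate 2 or 3 (0.68 and 0.67, adjusted p = 0.108 and 0.11). On day 2 the count was 0 of 7, where 31.2% of all genes passed. The change from day 2 to day 6 did not pass a test of the difference between the sexes for any of the 7 (0 of 15346 genes passed, 1488 at an unadjusted p under 0.05, and 15 with DESeq2). Each of these sex comparisons also crosses the 2 library sets and the LC label.

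Few of the other sweat gland genes passed alongside. Of 13 secretory coil genes, 1 passed against vehicle in females on day 2 (the calcium sensor gene Stim1, 0.57 ± 0.14, adjusted p = 0.00582) and 0 on days 6, 16 and 26. Their median log2 changes on the 4 days were 0.20, 0.31, -0.04 and 0.14, beside 0.04, -0.02, 0.03 and 0.02 over all genes. Of 6 ductal genes 1 passed on day 6 (the scaffold gene Slc9a3r1, 0.46 ± 0.15, adjusted p = 0.0256), where 29.5% of all genes did, and 4 of 6 leave-outs ended that call (adjusted p up to 0.115). Of 8 ionocyte-type genes 0 passed on any day. Over all genes 29%, 29.5%, 21.7% and 20.4% passed on days 2, 6, 16 and 26.

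Of the 12 luminal junction and transcription genes, 3 were lower on female day 2, 1 lower and 1 higher on day 6, 1 lower on day 16 and 2 lower on day 26. In either direction this was no larger a share than among all genes (29%, 29.5%, 21.7% and 20.4%). Among all genes 14.9%, 13.5%, 10.3% and 9.41% were lower, smaller than the luminal share lower on days 2 and 26. The mucin gene Muc1 fell by 1.19 ± 0.33 on day 2 (adjusted p = 0.0122), by 1.79 ± 0.35 on day 6 (0.000802) and by 1.29 ± 0.34 on day 26 (0.0111) against vehicle. Leaving out 1 library ended the day 2 call in 1 of 6 cases and the day 26 call in 2 of 6, with vehicle replicate 3 among them (adjusted p up to 0.0697). The epithelial transcription factor gene Ehf fell by 0.88 ± 0.14 on day 2 (adjusted p = 0.000116) and by 0.76 ± 0.14 on day 26 (0.000572). Grhl2, another such factor, fell by 0.58 ± 0.18 on day 2 (adjusted p = 0.0194) and by 0.69 ± 0.18 on day 16 (0.00929), calls that 4 of 6 and 3 of 6 leave-outs ended (adjusted p up to 0.0989 and 0.0597). The claudin gene Cldn4 was higher by 0.66 ± 0.20 on day 6 (adjusted p = 0.0193), which did not pass with vehicle replicate 1, vehicle replicate 3 or day 6 replicate 3 left out (adjusted p up to 0.125). None of these genes had r over 0.8 with Krt18.

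On day 6, 5 of 12 luminal genes were higher and 3 lower in females than in males, beside 19.2% and 18% of all genes. Epcam, the epithelial adhesion gene, was higher by 0.66 ± 0.13 (adjusted p = 0.000804), Cldn4 by 0.95 ± 0.20 (0.00135) and the transcription factor gene Elf3 by 1.38 ± 0.39 (0.00897; 0.0683 without female replicate 3), and Muc1 was lower, at -1.49 ± 0.36 (0.0031). The ductal sodium channel subunits passed in opposite directions, Scnn1g at 0.97 ± 0.20 (adjusted p = 0.000968) and Scnn1a at -0.71 ± 0.16 (0.00232).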

How the data were processed

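Hind paw skin and DRG RNA were sequenced as single-end 50-base reads of a stranded mRNA library (TruSeq), per the labels' protocols. The authors deposited raw read counts per gene, made with bcl2fastq, TopHat2 and HTSeq on mm9, per the submitters' processing notes; versions, annotation and strand setting are not given in the sources used here. The 5 summary lines per table stayed out of library totals.

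Counts were tested with edgeR 4.0.16 (quasi-likelihood test, TMM factors 0.937 to 1.08, filterByExpr, Benjamini-Hochberg adjustment, adjusted p under 0.05) on all 24 paw libraries, 8 groups and 15346 genes (biological coefficient of variation 0.244, 16 residual degrees of freedom), in R 4.3.3. The 6 vehicle libraries were fitted apart for the tissue comparison. Log2 CPM used a prior count of 2. Correlations used log2 CPM less the group mean, with 100000 permutations within groups. On data simulated for female day 6 against vehicle (15223 genes), 64.6% of 99 changes of 1 log2 unit and 90% of 100 of 2 log2 units were recovered.

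Members and gene lists were chosen with earlier results of these data known. Named genes were all members, at most 4 called genes per list and comparison (smallest adjusted p), tissue check genes and the 3 genes most correlated with each member. List genes with r over 0.8 with Krt18, and those named under the keratin covariate, were chosen after their values were seen. Same-numbered replicates deviated together (every pair's correlation over 0.1) only for vehicle with female day 2 (0.16 to 0.59), male day 6 (0.25 to 0.64) and male day 15 (0.19 to 0.55), a pairing seen in the values and not in the labels. Alternatives were DESeq2 1.42.0, its size factors, no filter, a replicate block, only the compared groups, muscle, secretory and keratin covariates, and each replicate left out. No 2 libraries agreed within sampling noise (lowest chi-square per degree of freedom 8.25 in paw and 4.83 in DRG), and the sex labels matched in 39 of 39 libraries. A gene of the secretory coil list is not reported by name here.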

Additional observations from a re-analysis of the deposited data

Results flagged for a closer look

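Aqp5, the water channel of secretory cells, gave a few reads in DRG of treated females, a tissue that no comparison of paw groups used. On day 2 it averaged 0.318 CPM (0.21 to 0.483, 5 to 11 reads a library) and on day 6 it averaged 0.383 CPM (0.243 to 0.54, 5 to 11 reads). In vehicle female DRG it averaged 0.096 CPM, with 0 to 4 reads and at most 0.159 CPM. In treated males it was at 0.144 to 0.17 CPM on day 2 and at 0.0393 to 0.356 on day 6. In the same libraries 5 suprabasal epidermal genes summed to 204 to 259 CPM in treated females on day 2 and 177 to 266 on day 6, against 27.9 to 29.9 in vehicle females, 25.9 to 30.2 in males on day 2 and 38.2 to 58.3 in males on day 6. The part of skin RNA in the Aqp5 reads was not tested. The values of treated females cross the 2 library sets, so treatment and set cannot be told apart, and all of them are near the limit of 3 reads that a count of 0 allows.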

How the results depend on the processing

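The 13 called changes of the 7 genes (7 between tissues, 6 in paw) kept their sign in all 154 alternative values, but not all of these values passed the threshold. The 7 calls between tissues held in each of 6 leave-outs. Each of the 6 paw calls was lost under at least 1 alternative, either the fit with only the compared groups or the muscle covariate. Of 1573 values of the 113 changes not called, 48 passed and 103 had the other sign. Counts of the 7 genes called that moved by more than 1.5 times were as follows. With only the compared groups in the fit, they were 1, 0, 2 and 1 on female days 2, 6, 16 and 26 against vehicle, 0 for day 16 against day 2 and against day 6, and 1 for females against males on day 6. With the secretory coil covariate, chosen after seeing the data, they were 2, 5, 1 and 1 against vehicle, 5 for day 16 against day 6, 1 for male day 2 against vehicle and 2 for females against males on day 2 (on day 6, 3 in place of 2). Of all genes, 31.5%, 33.3%, 25%, 23.7%, 13.7%, 7.52%, 35.4% and 42.2% passed in these comparisons, in that order. With the gland keratin covariate, chosen likewise and counted over the 4 genes outside it, the counts were 2, 2, 1 and 1 against vehicle, 1 for male day 6 against vehicle, and 2 and 1 for females against males on days 2 and 6. There 29.8%, 30.8%, 22.5%, 22.5%, 7.03%, 33.5% and 38.7% of all genes passed. With the muscle covariate the counts were 1 for day 16 against day 6, and 1 and 0 for females against males on days 2 and 6. DESeq2 gave 1 for day 6 against day 2 and 1 for females against males on day 2. With the replicate block, day 6 against vehicle gave 0 (Krt7 0.79, adjusted p = 0.0504), and without a covariate the block changed no other count of these genes (with the keratin covariate, Foxi1 on male day 6 passed, adjusted p = 0.0351). With 1 replicate left out, counts ranged from 0 to 1 for female day 2 and from 0 to 4 for day 6 against vehicle, and from 0 to 1 for day 16 against vehicle. They ranged from 0 to 1 for day 6 against day 2, from 0 to 1 for day 16 against day 2, and from 1 to 4 for day 16 against day 6. For females against males they ranged from 0 to 1 on day 2 and from 0 to 5 on day 6. The causes were not tested.

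Over all genes, day 6 against day 2 in females gave 134 calls, and 47 without the filter, 566 with the block, 1463 with DESeq2, 0 with the muscle, 1043 with the secretory and 1164 with the keratin covariate. Day 16 against day 2 gave 227, 507 with DESeq2 and 106 with the keratin covariate. Day 16 against day 6 gave 1364, 883 with the muscle and 2099 with the secretory covariate. Day 26 against day 16 gave 163, 409 with DESeq2, 333 with the muscle and 275 with the secretory covariate. Fits on the compared groups alone gave 0 in these 4, 2019 of 4454 for day 2 and 1891 of 4794 for females against males on day 2. Against vehicle, males on days 2, 6 and 15 gave 913, 916 and 676, and 1532, 1418 and 1120 with DESeq2, and day 2 gave 156 with the compared groups alone. Depth limits Cftr and, at 8 to 75 reads, Foxa1.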
